A study of Mus musculus with 33 samples.

Results

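The 10 livers described here are those in which β-catenin was activated without MYC, 5 Ex3 livers, and their controls, 5 wild-type livers, out of 33 samples in the series. They were chosen by title and genotype label. All 10 mice were C57BL/6, were 6 to 8 weeks old when AAV8-TBG-CRE was injected intravenously, and were killed 4 days later. AAV8-TBG-CRE is an adeno-associated virus whose TBG promoter drives Cre recombinase in hepatocytes, so other liver cells are not its target, and the wild-type mice received it too. The Ex3 mice carried beta-cat Ex3, an allele from which Cre cuts out exon 3 of Ctnnb1, in a copy number that the labels do not give. The series also holds 5 livers with Cre-activated MYC (R26-lslMYC) and 5 with MYC and Ex3, treated the same way, and noduli, here called tumours, from Albeta-CreERT2 mice (spelled as labelled) with MYC (3) or with MYC and Ex3 (3). A further 7 wild-type livers, given 4-OHT and labelled 4 days, are used here only in the fit of the tumours. The separate animal number in each title is the one sign that livers came from different mice. The unit is RPKM, which divides a gene's reads by its length in kilobases and by a library total, and the libraries were strand-specific and made from total RNA.

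β-catenin carries the canonical Wnt signal. Without Wnt, a complex of Axin, APC, CK1 and GSK3 phosphorylates the N-terminus of β-catenin, which marks it for degradation. With Wnt, β-catenin accumulates, enters the nucleus and works with TCF/LEF factors on target genes, several of which encode feedback inhibitors of the pathway. In the liver lobule the pathway is active in hepatocytes around the central vein, where it maintains glutamine synthesis, ammonium uptake and part of drug metabolism, while hepatocytes around the portal vein run urea synthesis and gluconeogenesis.

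Exon 3 is shown because it holds the residues that mark the protein for degradation. In the GENCODE annotation of GRCm38 it spans chr9:120950522-120950749 on the + strand, is all coding and is 228 bases long, a multiple of 3. Capitals mark codons 33, 37, 41 and 45, which encode the serine and threonine residues phosphorylated by CK1 and GSK3.
Ctnnb1 exon 3: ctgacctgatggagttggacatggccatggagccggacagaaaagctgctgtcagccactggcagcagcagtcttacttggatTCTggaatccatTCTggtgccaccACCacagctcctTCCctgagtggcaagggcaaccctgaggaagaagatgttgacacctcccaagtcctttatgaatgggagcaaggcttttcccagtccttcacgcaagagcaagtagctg

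Removal of exon 3 leaves the rest of the transcript, so the level of Ctnnb1 says little of the recombination itself. Ctnnb1 was at 131, 121, 122, 134 and 131 RPKM in wild-type replicates 1 to 5 and at 114, 115, 124, 126 and 123 RPKM in Ex3 replicates 1 to 5. The groups overlapped. The difference was -0.08 ± 0.0895 on the log2(RPKM + 1) scale (SE; limma adjusted p = 0.999; 95% confidence interval -0.27 to 0.10). The values are per gene, so reads of exon 3 alone were not measured.

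On day 4 few genes passed the test, and those that did were higher with Ex3. Of 13119 genes with an RPKM of at least 1 in at least 3 of the 10 livers, 18 rose and 0 fell at a limma adjusted p under 0.05, or 0.137% of the genes tested. At an unadjusted p under 0.05, 724 genes differed (5.52%), 436 of them higher (3.32%). The 18 genes included feedback genes of the Wnt pathway (Axin2, Sp5, Lgr5, Znrf3), transporters (Slc1a4, Slc1a5, Rhbg) and enzymes (Gstm2, Gba2, Acot1). Their log2 changes ran from 0.89 to 2.13 with a median of 1.24, while the median over all genes tested was 0.01. For 16 of the 18 the groups did not overlap, which held for 1.05% of all genes in that direction. Sp5, Kif26b and Ces2d-ps passed the filter on low values only through their Ex3 livers, and all are counted in the 18. Sp5 and Kif26b are also among the 16. The authors' deposited table calls 84 genes higher and 14 lower in the same comparison, all 18 of these among them.

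**Figure D1:**
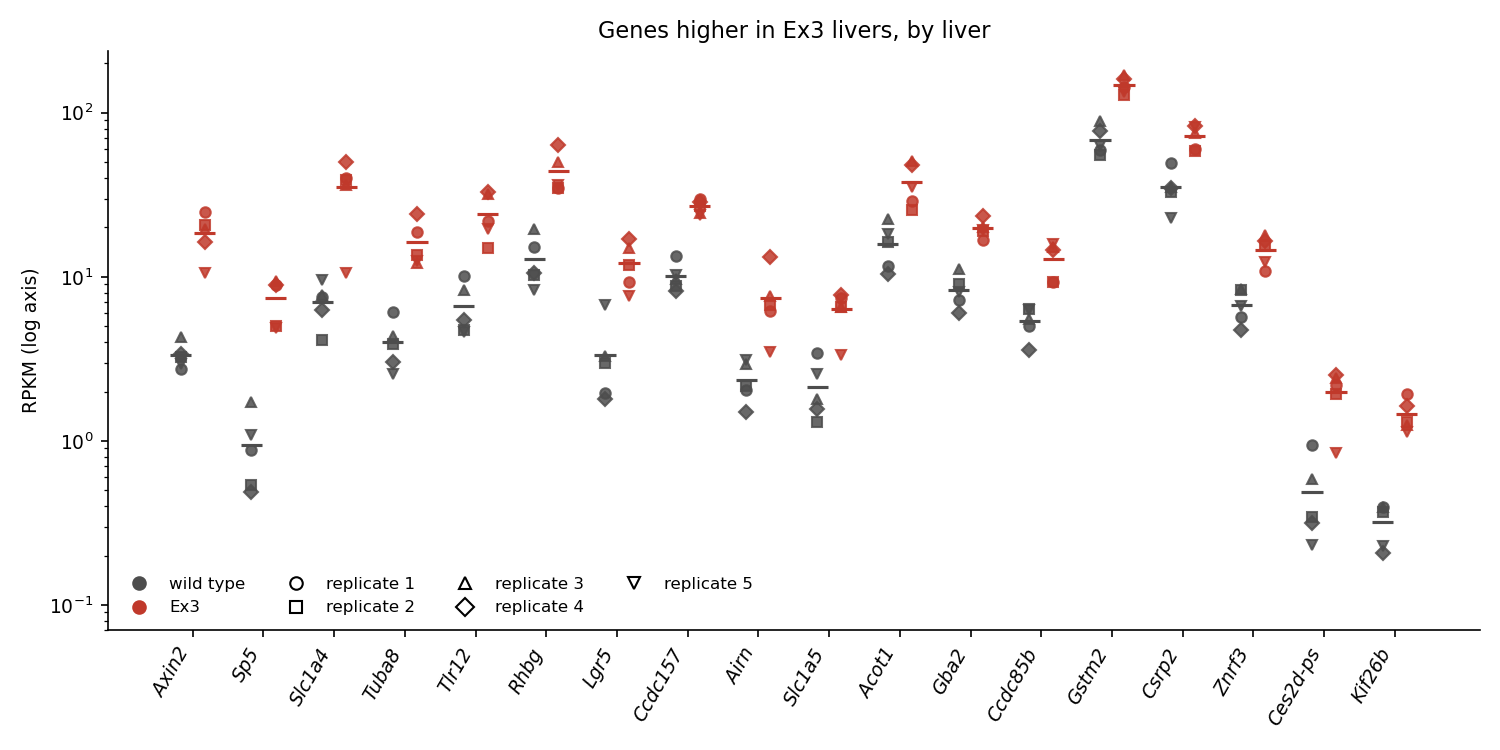
RPKM of the 18 called genes in each liver on a log axis, wild type in grey and Ex3 in red; each marker shape is a replicate number within its group (numbers do not pair livers across groups), and bars are group means. Every gene but Slc1a5 and Ces2d-ps separates the groups without overlap.

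On the log2(RPKM + 1) scale the Wnt feedback gene Axin2 and the Wnt target Sp5 had the largest differences of the 18. Axin2 encodes a scaffold of the complex that degrades β-catenin. It was at 2.73, 3.24, 4.30, 3.40 and 2.93 RPKM in the wild-type livers and at 24.9, 20.8, 19.7, 16.2 and 10.6 RPKM in the Ex3 livers. The lowest Ex3 liver, replicate 5, was well above the highest wild-type liver. Axin2 rose by 2.13 ± 0.351 log2 units (SE; limma adjusted p = 0.0119), a 5.55-fold rise of the mean. An exact permutation test of its log2 values gave p = 0.00794 (two-sided), the smallest that 5 against 5 livers allow, which restates that the groups do not overlap and adds no support to the call.

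Sp5 encodes a zinc finger transcription factor of the Sp family and was low without Ex3. Its RPKM was 0.886, 0.535, 1.73, 0.490 and 1.09 in wild-type livers and 8.86, 5.04, 9.45, 8.97 and 4.85 in Ex3 livers. Sp5 rose by 2.11 ± 0.293 log2 units (limma adjusted p = 0.0034), and its mean was 7.86-fold higher. Lgr5, a receptor for R-spondins that strengthen Wnt signalling, was at 1.95, 2.98, 3.30, 1.81 and 6.72 RPKM in wild type and at 9.24, 11.9, 14.9, 17.1 and 7.63 RPKM with Ex3. Wild-type replicate 5 and Ex3 replicate 5 came close to each other. Lgr5 rose by 1.64 ± 0.319 (limma adjusted p = 0.0393) and stayed called in 2 of 10 fits with 1 liver omitted (limma adjusted p up to 0.175).

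Znrf3 encodes a membrane ubiquitin ligase that removes Wnt receptors. It was at 5.68, 8.28, 8.42, 4.75 and 6.66 RPKM in wild-type livers and at 10.8, 15.4, 18.1, 16.5 and 12.3 RPKM in Ex3 livers, with no overlap, and rose by 1.02 ± 0.187 (limma adjusted p = 0.0248). Its partner Rnf43 had the larger difference without passing the threshold, 1.36 ± 0.295 (limma adjusted p = 0.0808), with 11.3, 17.9, 13.6, 6.66 and 13.5 RPKM in wild type against 29.5, 32.8, 41.7, 41.7 and 21.0 RPKM with Ex3. These groups did not overlap either.

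The list of Wnt targets and feedback genes holds 26 symbols, of which 18 passed the filter on low values. Besides the 4 called genes none was called, but Tnfrsf19, Rnf43, Tbx3, Notum and Tcf7 also had every Ex3 liver above every wild-type liver, so that 9 of 18 members did. Among all genes tested 0.137% were called and 1.05% had no overlap in that direction. Of the 18, 11 had a log2 change above 0, against 53% of all genes tested, and the median was 0.73. The median depended on the filter: with no filter on low values it was 0.18 over all 26 symbols, with 3 called. Notum, a secreted enzyme that inactivates Wnt proteins, was at 22.4 to 59.1 RPKM in wild-type livers and at 64.5 to 87.5 RPKM in Ex3 livers (log2 difference 0.99 ± 0.356; limma adjusted p = 0.652). Tbx3, a T-box transcription factor, was at 8.66 to 11.1 RPKM against 13.0 to 27.4 RPKM (1.06 ± 0.329; limma adjusted p = 0.481), and Nkd1, which restrains Dishevelled, had a difference of 0.85 ± 0.258 (limma adjusted p = 0.447) with overlapping groups. The authors' deposited table calls Rnf43, Notum, Tbx3 and Nkd1 higher (log2 fold changes 0.91, 0.71, 0.89 and 0.71) and does not call Tnfrsf19.

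Other genes often read as Wnt targets showed no such separation. Ccnd1, which encodes cyclin D1, spanned 16.98 to 50.2 RPKM in wild-type and 18.6 to 67.8 RPKM in Ex3 livers (limma adjusted p = 0.999). Sox9, Bambi and Bmp4 had differences of -0.16, -0.06 and -0.00 log2 units. Lef1, Nkd2, Dkk1, Dkk2, Dkk4, Wif1, Apcdd1 and Lgr6 did not pass the filter. Lgr4, the R-spondin receptor that is more widely expressed than Lgr5, went the other way. Its RPKM was 58.6, 62.7, 51.6, 62.6 and 48.3 in wild-type livers and 41.1, 42.2, 40.6, 38.7 and 45.5 in Ex3 livers, with every Ex3 liver below every wild-type liver, as for 0.587% of all genes. The difference was -0.43 ± 0.108 (limma adjusted p = 0.204). The authors' deposited table calls Lgr4 lower (log2 fold change -0.41).

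In the lists of upstream genes no member was called. The called genes Axin2, Znrf3 and Lgr5 also act upstream in the pathway, but were counted in the Wnt target list. In the list of the destruction complex and its nuclear partners, which includes Axin1, Apc, Gsk3b and the TCF factors, 0 of 27 tested members were called. Of these 27, 16 were above 0 (53% of all genes tested were) and the median was 0.03. Cdh2, which encodes N-cadherin, a membrane partner of β-catenin, had the largest difference there (0.49 ± 0.146; limma adjusted p = 0.443): it was at 30.8 to 40.8 RPKM in wild-type livers and 46.7 to 55.0 RPKM in Ex3 livers, without overlap. Of the Wnt ligands and receptors 0 of 23 tested were called, with a median of 0.05. Lrp6, a Wnt co-receptor, had -0.27 ± 0.113 (limma adjusted p = 0.84), and the most positive was the receptor gene Fzd8 (0.92 ± 0.409; limma adjusted p = 0.878), whose wild-type livers alone spanned 2.70 to 20.5 RPKM.

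**Figure D2:**
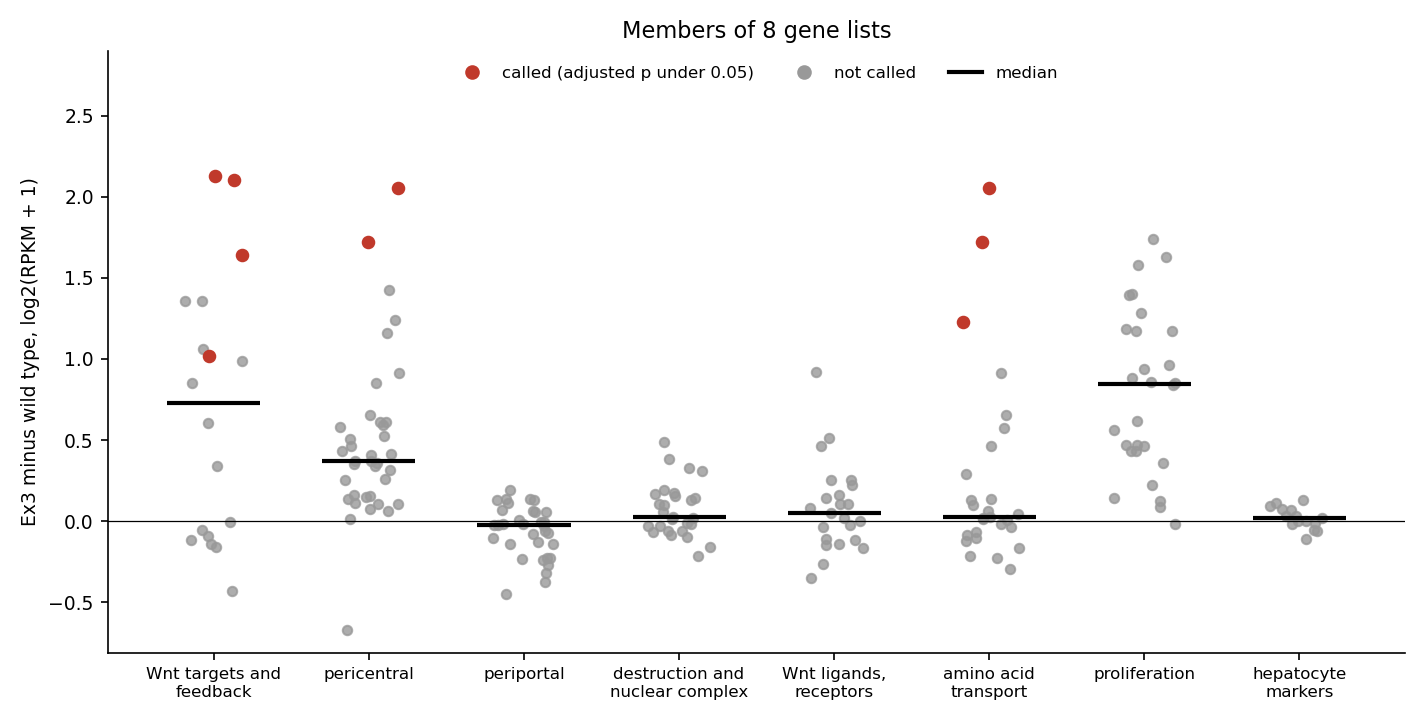
Ex3 minus wild-type difference in log2(RPKM + 1) of each tested member of 8 gene lists; red points are called (limma adjusted p under 0.05), grey points are not, and black bars are medians. The Wnt target list has 4 called members and the pericentral list 2, the proliferation list has a median of 0.85 with none called, and hepatocyte markers lie near 0.

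Genes of pericentral hepatocytes were mostly higher with Ex3, with few past the threshold. Of 37 tested, 2 were called, Slc1a4 and Rhbg, and 36 had a log2 change above 0 with a median of 0.37. In 11 every Ex3 liver was above every wild-type liver. Over all genes tested the shares were 0.137% called, 53% above 0 and 1.05% without overlap in that direction. Periportal genes lay near 0: 0 of 33 were called, 11 were above 0 and the median was -0.03, from -0.45 (Ctsc) to 0.19. Whether more cells with pericentral expression or more RNA in each such cell underlies a difference cannot be told apart in whole liver.

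Slc1a4 encodes a sodium-dependent transporter of small neutral amino acids. It was at 7.52, 4.12, 7.77, 6.23 and 9.54 RPKM in wild-type livers and at 40.0, 38.9, 36.0, 50.3 and 10.6 RPKM in Ex3 livers. Ex3 replicate 5 was barely above the highest wild-type liver, and the other 4 Ex3 livers were far above. Slc1a4 rose by 2.05 ± 0.335 (limma adjusted p = 0.0119). Rhbg encodes an ammonium transporter of the pericentral hepatocyte membrane. It was at 15.1, 10.3, 19.6, 10.5 and 8.31 RPKM in wild type and at 34.9, 34.7, 50.1, 63.5 and 36.1 RPKM with Ex3, with no overlap, and rose by 1.72 ± 0.31 (limma adjusted p = 0.0231).

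Slc1a5, the glutamine transporter of the same family as Slc1a4, was at 3.44, 1.30, 1.79, 1.57 and 2.57 RPKM in wild-type livers and at 7.41, 6.59, 6.53, 7.80 and 3.35 RPKM in Ex3 livers. Here Ex3 replicate 5 lay below wild-type replicate 1. Slc1a5 rose by 1.23 ± 0.205 (limma adjusted p = 0.0123). In the list of glutamate, glutamine and other amino acid transport these 3 genes were the called ones among 27 tested, 17 of the 27 were above 0 and the median was 0.03. Of all genes tested, 0.137% were called and 53% were above 0.

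Glul, which encodes glutamine synthetase and is the best known marker of the pericentral zone, was higher in every Ex3 liver and not called. It was at 173, 207, 189, 197 and 200 RPKM in wild type and at 244, 220, 303, 279 and 296 RPKM with Ex3 (log2 difference 0.47 ± 0.211; limma adjusted p = 0.886). Glul ranked 40 of 13119 genes by mean RPKM, in a range where values are compressed. No liver had a gene above 354 RPKM and in 1 liver the top gene reached only 270.0 RPKM, and each log2 unit of depth went with a median growth of 0.36 log2 units in the reads of the top 50 genes but of 1.36 in 11637 others. How far this limits the change of Glul was not tested.

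Other pericentral genes with no overlap and no call were Lhpp, a phosphatase gene, Gstm3, Gstm6, Cyp1a2, Gulo, Lect2, Slc22a3 and Cyp2c54. Lhpp was at 40.9 to 62.3 RPKM in wild-type and 89.6 to 161 RPKM in Ex3 livers (1.16 ± 0.286; limma adjusted p = 0.19), and Gstm3 at 23.5 to 64.0 against 79.0 to 122 RPKM (1.42 ± 0.361; limma adjusted p = 0.228). The authors' deposited table calls both higher (log2 fold changes 0.89 and 0.95) and does not call Glul. Cyp2e1, which marks a wider pericentral band, overlapped between groups (0.16 ± 0.16; limma adjusted p = 0.999). It ranked 21 of 13119 genes by mean RPKM, also in the range where values are compressed. The exception in direction was Cldn14, a tight junction gene, at -0.67 ± 0.213 (limma adjusted p = 0.5).

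Detoxification genes gave 1 call. Gstm2 encodes a glutathione transferase. It was at 59.1, 55.3, 88.8, 77.2 and 62.6 RPKM in wild type and at 144, 128, 171, 160 and 134 RPKM with Ex3, and rose by 1.11 ± 0.161 (limma adjusted p = 0.00353). It was the 1 called gene of 33 in the list of drug metabolism and conjugation (24 above 0, median 0.14), and the only one called in the urea and ammonium list of 19 was Rhbg (11 above 0, median 0.10). The shares over all genes tested were 0.137% called and 53% above 0. The Gstm genes are close paralogs, so reads may be divided between Gstm2 and its neighbours.

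The other called genes have no shared role among the lists. Csrp2 encodes a LIM-domain protein. It was at 49.3, 33.1, 35.4, 34.7 and 22.9 RPKM in wild-type livers and at 60.2, 58.8, 75.7, 83.1 and 82.0 RPKM in Ex3 livers, and rose by 1.04 ± 0.147 (limma adjusted p = 0.0034). Tuba8, an α-tubulin gene, was at 6.10, 3.92, 4.37, 3.02 and 2.55 RPKM against 18.7, 13.5, 12.1, 24.1 and 12.6 RPKM, and rose by 1.78 ± 0.252 (limma adjusted p = 0.0034). Neither gene's groups overlapped. Tlr12, a Toll-like receptor gene, was at 10.1, 4.74, 8.26, 5.44 and 4.603 RPKM against 21.9, 14.9, 31.9, 33.03 and 19.5 RPKM, and rose by 1.72 ± 0.269 (limma adjusted p = 0.0077). Ccdc157, a coiled-coil gene, was at 8.17 to 13.5 RPKM in wild type and at 23.8 to 29.9 RPKM with Ex3, and rose by 1.34 ± 0.241 (limma adjusted p = 0.0231). Ccdc85b was at 3.56 to 6.34 RPKM against 9.31 to 15.9 RPKM and rose by 1.11 ± 0.217 (limma adjusted p = 0.0393).

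Some of these genes overlap others or have close relatives, and the strand setting of the counting is not given in the sources used here. Gba2, a non-lysosomal glucosylceramidase gene, was at 7.27, 9.08, 11.2, 6.02 and 8.05 RPKM in wild-type and 16.8, 19.0, 20.0, 23.6 and 19.4 RPKM in Ex3 livers, and rose by 1.17 ± 0.205 (limma adjusted p = 0.0192). Its neighbour Rgp1 had a difference of 0.58 ± 0.21 (limma adjusted p = 0.654), and Npr2, 2 protein-coding genes further on in RefSeq's order, one of 1.03 ± 0.389 (limma adjusted p = 0.711). In the authors' deposited table all of them are called higher, with log2 fold changes of 0.99 for Gba2, 0.52 for Rgp1 and 0.76 for Npr2. Airn, the non-coding RNA antisense to Igf2r, was at 1.504 to 3.13 RPKM in wild-type and 3.46 to 13.1 RPKM in Ex3 livers and rose by 1.26 ± 0.23 (limma adjusted p = 0.0248). Igf2r had a difference of 0.47 ± 0.174 (limma adjusted p = 0.7), and reads of the 2 genes may not be separable.

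Acot1, a cytosolic acyl-CoA thioesterase gene with near-identical relatives, was at 10.4 to 22.5 RPKM in wild-type and 25.4 to 50.9 RPKM in Ex3 livers and rose by 1.21 ± 0.23 (limma adjusted p = 0.035). Its relative Acot2 had a difference of 0.45 ± 0.287 (limma adjusted p = 0.987). Ces2d-ps, a carboxylesterase pseudogene whose reads may belong to its family, was at 0.233 to 0.946 RPKM in wild-type and 0.844 to 2.53 RPKM in Ex3 livers and rose by 0.99 ± 0.183 (limma adjusted p = 0.0248). As few as 2 reads in a wild-type liver and 7 in an Ex3 liver lay behind it. Kif26b, a kinesin-family gene, was at 0.207 to 0.398 RPKM against 1.13 to 1.94 RPKM and rose by 0.89 ± 0.175 (limma adjusted p = 0.0405), with no overlap. It was not called in any of 10 fits with 1 liver omitted (limma adjusted p up to 0.172). Ces2d-ps and Kif26b reached an RPKM of 1 in no wild-type liver, so both passed the filter only through Ex3 livers.

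Just outside the threshold, among genes whose names do not end in Rik, were Egln3, a prolyl hydroxylase gene (0.94 ± 0.189; limma adjusted p = 0.05001), Tnfrsf19 (1.36 ± 0.284; 0.067), Teddm2 (1.16 ± 0.244; 0.0673), the kinase gene Cdk6 (0.74 ± 0.157; 0.0721), Tbcel (0.71 ± 0.152; 0.0785) and Bmp7, a secreted ligand gene (1.404 ± 0.305; 0.0808). Among genes lower with Ex3, Acpp had the smallest p, at 3.73, 2.89, 6.17, 5.81 and 7.45 RPKM in wild-type and 2.49, 2.50, 1.46, 1.73 and 1.64 RPKM in Ex3 livers (-1.03 ± 0.225; limma adjusted p = 0.0808). Aspg, an asparaginase gene, followed with Zfp35 (-0.73 ± 0.178 and -0.56 ± 0.135; limma adjusted p = 0.184 for each). Aspg was at 88.6 to 112 RPKM in wild type and 41.7 to 84.98 RPKM with Ex3, and these groups did not overlap. In the authors' deposited table Acpp, Aspg and Zfp35 are called lower (log2 fold changes -0.93, -0.60 and -0.52). Of the higher genes just outside the threshold named here, Tnfrsf19 alone is not called there.

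The upstream sequences of called genes are shown for the letters that TCF/LEF factors bind. RefSeq's promoter table for GRCm38.p6 matched 12 of the 18 called genes, and the 250 bases before each start were searched on both strands for CTTTG followed by 2 letters that are each A or T. Of the 12 genes 3 held a match, and 14.8% of the 32851 windows in the table did. Sp5 had matches that begin 222 and 104 bases before its start, Acot1 had them at 211 and 174 bases, and Kif26b at 10 bases. Axin2 is shown beside them as the gene with the largest difference on the log2(RPKM + 1) scale, and these letters are not in its window. Capitals mark the matches, and each sequence reads 5′ to 3′ in the direction of its gene.
Sp5, chr2:70474673-70474922 (+): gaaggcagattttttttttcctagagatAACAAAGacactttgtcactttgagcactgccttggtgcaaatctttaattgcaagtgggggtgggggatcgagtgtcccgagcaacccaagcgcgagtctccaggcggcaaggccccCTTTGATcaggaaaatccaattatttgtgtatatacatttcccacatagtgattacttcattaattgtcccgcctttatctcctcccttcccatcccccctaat
Acot1, chr12:84009252-84009501 (+): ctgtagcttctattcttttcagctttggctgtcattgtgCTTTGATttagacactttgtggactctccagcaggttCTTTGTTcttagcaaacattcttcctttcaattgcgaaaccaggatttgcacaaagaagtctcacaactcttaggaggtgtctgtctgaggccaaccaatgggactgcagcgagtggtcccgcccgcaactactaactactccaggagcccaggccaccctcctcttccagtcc
Kif26b, chr1:178528875-178529124 (+): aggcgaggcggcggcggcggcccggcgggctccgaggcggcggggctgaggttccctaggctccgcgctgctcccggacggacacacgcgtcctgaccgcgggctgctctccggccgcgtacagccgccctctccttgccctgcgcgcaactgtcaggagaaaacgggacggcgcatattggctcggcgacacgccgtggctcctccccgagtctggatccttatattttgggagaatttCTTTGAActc
Axin2, chr11:108920099-108920348 (+): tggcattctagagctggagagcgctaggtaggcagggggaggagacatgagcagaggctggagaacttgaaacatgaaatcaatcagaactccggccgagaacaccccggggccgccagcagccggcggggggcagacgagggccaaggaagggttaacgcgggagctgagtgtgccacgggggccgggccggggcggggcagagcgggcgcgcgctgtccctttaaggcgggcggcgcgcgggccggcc

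Proliferation genes were higher in a pair of Ex3 livers. Of 28 tested, 0 were called by limma, 27 were above 0 (53% of all genes were), the median was 0.85 and 14 were higher at an unadjusted p under 0.05 (3.32% of all genes). With no filter on low values the median was 0.59 over 32 members, and with a filter at an RPKM of 5 it was 0.395 over 6. Without Ex3 replicate 3 or without Ex3 replicate 4, 26 members passed the filter. The summed RPKM of the list was between 101.1 and 139 in the wild-type livers and 141, 134, 348, 390 and 159 in Ex3 replicates 1 to 5. Replicates 3 and 4 stood apart from the 8 other livers. Mki67, the marker of cycling cells, was at 1.60, 0.936, 3.49, 3.51 and 4.67 RPKM in wild type and at 3.71, 3.05, 24.3, 28.0 and 4.25 RPKM with Ex3 (1.398 ± 0.481; limma adjusted p = 0.6). Ccnb1, which encodes mitotic cyclin B1, was at 0.097 to 2.07 RPKM in wild type, at 24.3 and 26.6 RPKM in Ex3 replicates 3 and 4 and at 0.962 to 1.64 RPKM in the others (1.58 ± 0.645; limma adjusted p = 0.788). Mcm6, a replication helicase subunit gene, had no overlap (2.98 to 3.62 RPKM against 3.98 to 11.1 RPKM; 0.84 ± 0.261; limma adjusted p = 0.484). The authors' deposited table calls Mcm6 higher (log2 fold change 0.68) and does not call Mki67. Ex3 replicates 3 and 4 were the female Ex3 livers by Xist and Ddx3y and both had keratin reads. Fitted within females, the median was 1.53 over 26 members, and within males it was 0.12 over 24. The medians of all genes in these fits were -0.01 and 0.01. The Ex3 group of the female fit is replicates 3 and 4 alone, so its median restates that these livers were high. The median was 1.23 in the livers with keratin reads and 0.185 (22 members) in those without, with 0 called in each, and 0.88 with a term for sex. Female wild-type livers (replicates 2, 3 and 5) had sums of 101.1, 131 and 139 RPKM. Keratin reads were also present in Ex3 replicate 5, a male liver with a sum of 159 RPKM. Wild-type replicates 2, 4 and 5 had them too, with sums of 101.1, 133 and 139 RPKM. Since the 2 high Ex3 livers are the only female Ex3 livers, sex and these livers cannot be told apart. Whether keratin reads play a part was not tested.

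**Figure D3:**
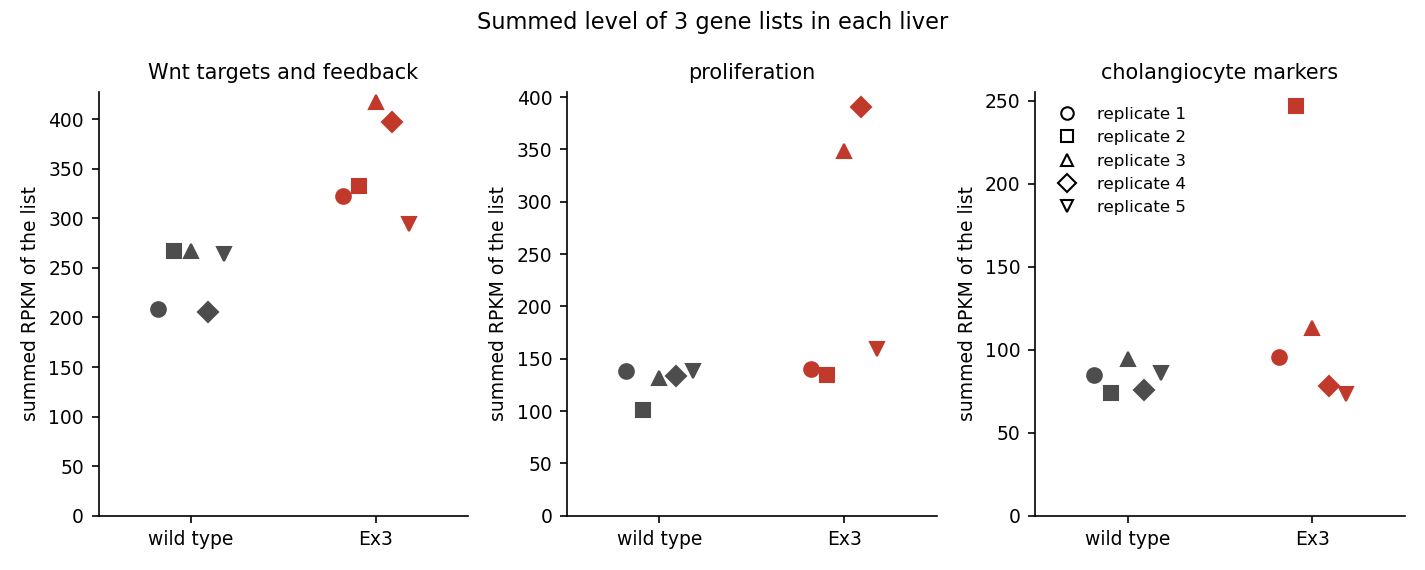
Summed RPKM of 3 gene lists in each liver (linear axes from 0), wild type in grey and Ex3 in red, with 1 marker shape per replicate number. For Wnt targets every Ex3 liver (294 to 417) is above every wild-type liver (206 to 267), proliferation is high in Ex3 replicates 3 and 4, and cholangiocyte markers are high in Ex3 replicate 2.

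Depth and cell types were checked. Reads assigned to genes numbered 4.22 to 6.06 M per liver, and between 15916 and 18145 genes had at least 1 read. Alb ranked 14 of 13119 genes by mean RPKM. Of 15 hepatocyte markers tested 0 were called, with a median of 0.02. Alb lies in the range where values are compressed, and how far this limits the differences of such abundant markers was not tested. In 3 livers of each group the summed RPKM of the epidermal keratins Krt5, Krt14 and Krt17 was at least 1, and the labels name no source for them. By Xist and Ddx3y 2 of 5 wild-type and 3 of 5 Ex3 livers were male. Of the lists of male-biased and female-biased liver genes 0 of 14 members each were called, with medians of 0.65 and -1.15. With a term for sex the medians were 0.21 and 0.03, and leaving out 1 liver gave 0.256 to 1.04 and -1.99 to -0.465. The 8 lists of other cell types had 0 called members. Of 13 macrophage markers tested 2 were above 0 (median -0.08), and of 15 endothelial markers 4 were (median -0.14), while 53% of all genes were. The 13 stellate cell and fibroblast markers had a median of 0.02 and the 10 cholangiocyte markers one of 0.48, or 0.08 over 8 markers without Ex3 replicate 2. Ex3 replicate 2 had a summed cholangiocyte level of 247 RPKM against 73.4 to 113 RPKM in the 9 other livers, and Krt19, a bile duct keratin, was at 57.5 RPKM there and at most 2.64 RPKM elsewhere. Without Ex3 replicate 2, 13 genes were called, 12 of them among the 18.

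The 18 called genes were then compared within subsets of the livers. The genes were called on these same livers, most of them with no overlap, so their direction in a subset is largely fixed. Their sizes are raised by the same selection and are given only to compare subsets with each other. The filter passed 17 of them in the livers with keratin reads, 16 without, 17 in males and 16 in females, with median log2 changes of 1.41, 1.04, 1.27 and 1.54, while the medians of all genes were 0.03, -0.01, 0.01 and -0.01. In these smaller fits limma called 2, 1, 0 and 10 of them, and nothing is read from these counts for the same reason. Tlr12 was at 2.26 with and 0.91 without keratin reads and Rhbg at 2.22 and 0.98, while Axin2 was at 1.94 and 2.42.

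**Figure D4:**
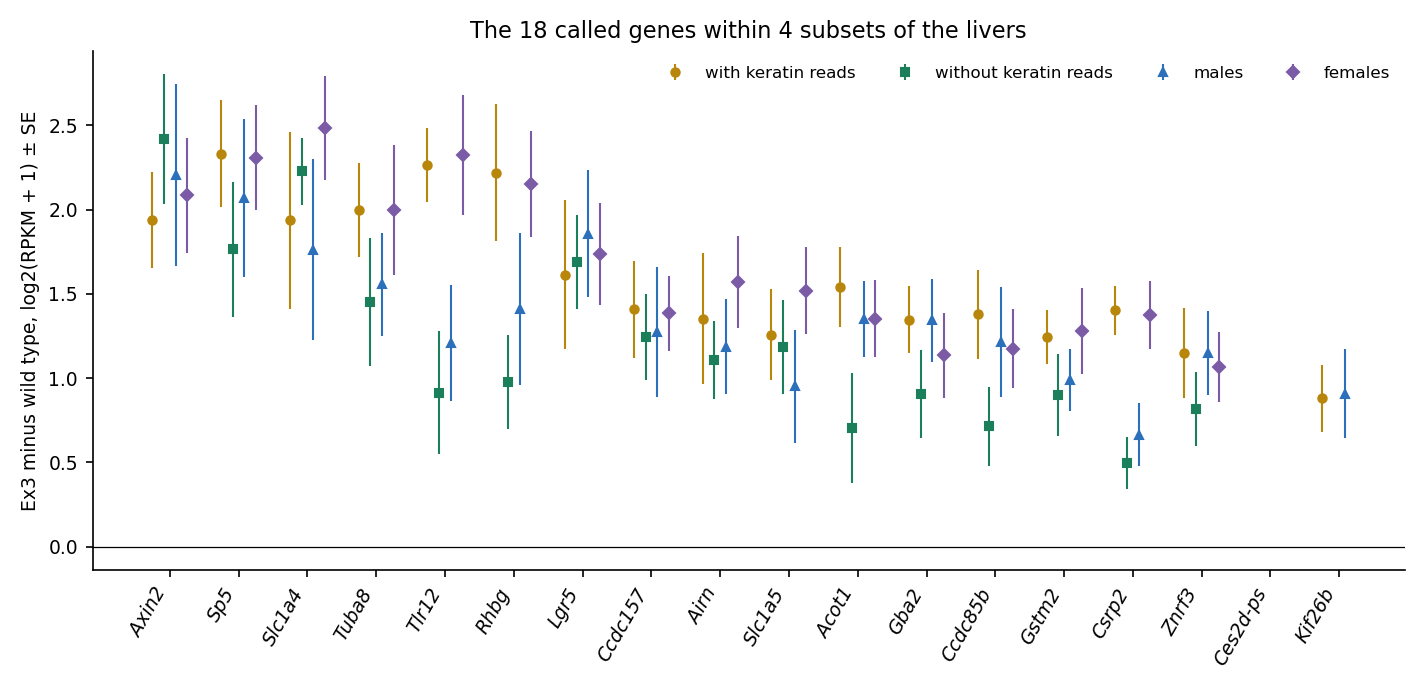
Ex3 minus wild-type difference in log2(RPKM + 1), with SE, of the called genes fitted within the livers with or without keratin reads and within each sex. Direction is largely fixed by how the genes were called, and sizes are raised by it. The plot serves to compare sizes between subsets, such as 2.26 with and 0.91 without keratin reads for Tlr12. Ces2d-ps, and Kif26b in some subsets, did not pass the filter on low values there.

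Among Ex3 livers replicate 5 was the lowest for 9 of the 18 genes and replicate 4 the highest for 10. Of the genes, 6 stayed called in each of 10 fits with 1 liver omitted: Axin2, Sp5, Csrp2, Tuba8, Gstm2 and Tlr12. In contrast, 10 of the 18 were called in 5 or fewer: Rhbg and Gba2 in 5, Znrf3 in 4, Ccdc157, Airn, Acot1 and Ces2d-ps in 3, Lgr5 and Ccdc85b in 2 and Kif26b in 0. The number of calls fell to 6 without Ex3 replicate 4, to 7 without Ex3 replicate 3 or wild-type replicate 4 and to 11 without wild-type replicate 5.

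Livers with MYC give an independent look at the same genes, since MYC+Ex3 and MYC livers are other animals, although all 20 livers share the estimate of spread in the fit. There, 20 genes were called in all, all higher (0.152%). All 18 genes were higher in MYC+Ex3 than in MYC livers, where 48.1% of all genes were, 17 had an unadjusted p under 0.05 in that direction (1.78% of all genes) and 10 were called. The groups did not overlap for 14 of them, against 0.473% of all genes. Axin2 was at 0.513 to 6.99 RPKM in MYC livers and at 7.49 to 24.3 RPKM in MYC+Ex3 livers (2.18 ± 0.351; limma adjusted p = 0.0122). Slc1a4 was at 6.39 to 17.2 RPKM against 23.8 to 56.5 RPKM (1.80 ± 0.335; limma adjusted p = 0.0369), and Rhbg at 5.42 to 16.6 RPKM against 18.7 to 68.4 RPKM (2.14 ± 0.31; limma adjusted p = 0.00453). Ces2d-ps and Kif26b had the smallest differences, 0.35 and 0.50. Keratin reads were present in MYC replicate 4 and in MYC+Ex3 replicates 3, 4 and 5. By Xist and Ddx3y, MYC replicates 3 and 5 and MYC+Ex3 replicate 5 were female. The MYC and MYC+Ex3 livers were thus not balanced for keratin reads or sex.

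Whether the effect of Ex3 differed with MYC was tested as an interaction, which called 0 of 13119 genes, with 119 at an unadjusted p under 0.05 (0.907%). Of the 18 genes 13 had a smaller difference with MYC, and the interaction was above 0 for 45.2% of all genes. Nothing is read from this count, since the 18 were called on their difference without MYC. The interaction for Axin2 was 0.05 (95% confidence interval -0.99 to 1.09) and for Slc1a4 -0.25 (-1.24 to 0.74). Ces2d-ps was the 1 gene of the 18 at an unadjusted p under 0.05 (-0.64; limma adjusted p = 0.9999). Of the genes that the authors' deposited table calls higher with Ex3, 83 could be tested in the MYC livers. There 82 were higher (48.1% of all genes were), 57 at an unadjusted p under 0.05 (1.78%), and the median was 0.69. Of those it calls lower, 12 of 14 were lower, 4 at an unadjusted p under 0.05. Their median was only -0.14, 0 were called, and the share of all genes lower at that p is not given here.

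Tumours carry the same alleles over a longer time and were fitted separately with livers of the tumour arm, whose RPKM are on another scale. By Xist and Ddx3y, MYC+Ex3 tumour 3 was female and the other tumours were male. Of 11064 genes, 487 passed the test (4.4%), 247 with a higher value in MYC+Ex3 than in MYC tumours (2.23%) and 240 with a lower one (2.17%). The filter passed 15 of the 18 genes, of which 14 were higher (58.7% of all genes were), 14 also at an unadjusted p under 0.05 in that direction (9.74%), 12 were called, and 13 had no overlap (9.1%). Axin2 was at 0.0946 to 0.660 RPKM in MYC tumours and at 7.63 to 11.3 RPKM in MYC+Ex3 tumours (3.003 ± 0.202; limma adjusted p = 7.21e-07). Rhbg had the largest difference, 3.72 ± 0.261 (limma adjusted p = 9.16e-07). Gba2 was the exception, at 1.41 to 2.61 RPKM against 1.91 to 2.13 RPKM (-0.01 ± 0.136; limma adjusted p = 0.99). In the Wnt target list 10 of 13 tested members were called higher in the tumours, among them Notum (3.35), Tnfrsf19 (2.997) and Tbx3 (2.27). Limma did not call these on day 4, while the authors' deposited table calls Notum and Tbx3 higher with Ex3 on day 4 (log2 fold changes 0.71 and 0.89). In the periportal list 8 of 32 were called lower in tumours, such as Gls2 at -1.53, against 0 of 33 on day 4. Whether the changes in tumours differ from those on day 4 was not tested.

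**Figure D5:**
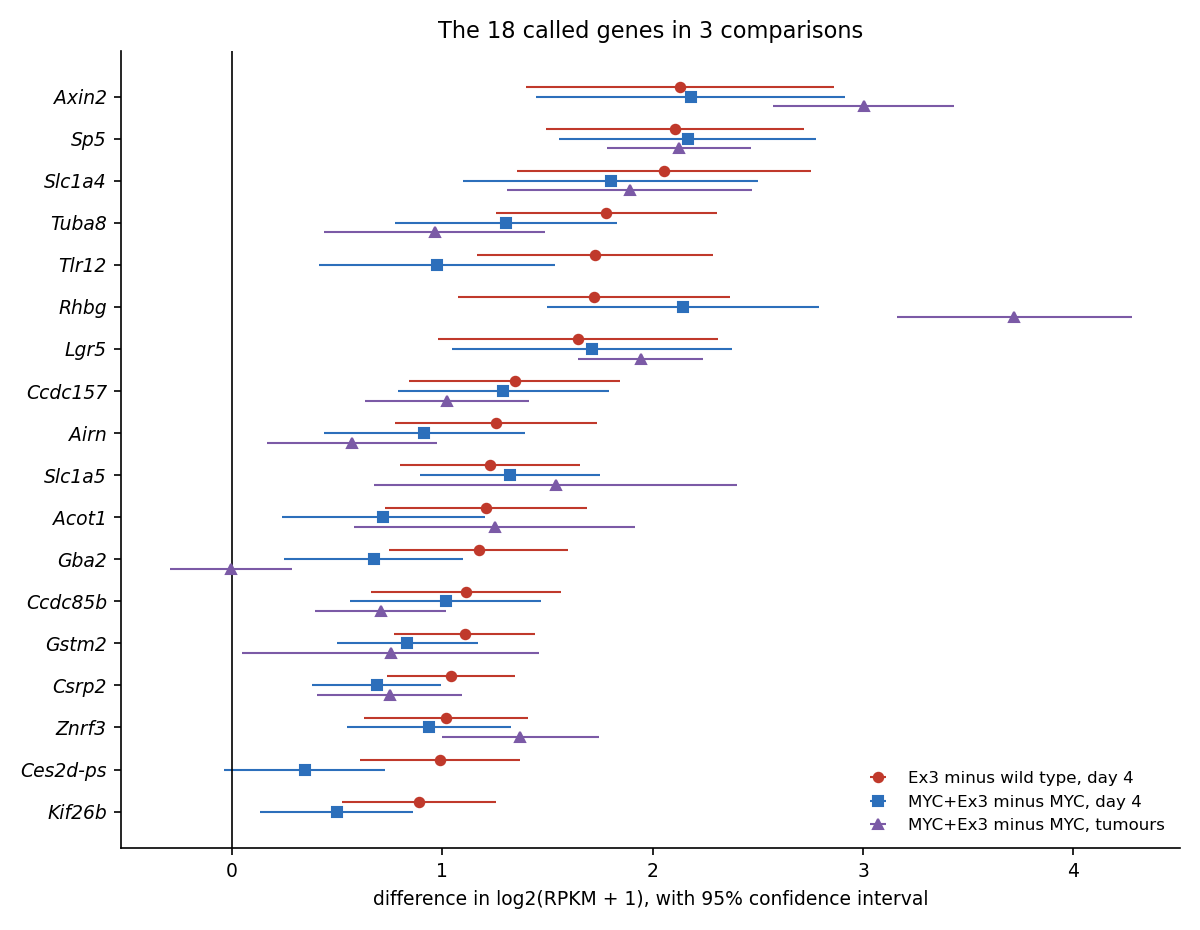
Difference in log2(RPKM + 1) with its 95% confidence interval for the 18 called genes in Ex3 minus wild-type livers (red circles), MYC+Ex3 minus MYC livers (blue squares) and MYC+Ex3 minus MYC tumours (purple triangles, 15 genes). The day 4 points of all 18 genes are above 0, and Gba2 in tumours is at -0.01.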

How the data were processed

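RNA sequencing values of 10 livers were compared, with 10 MYC livers and 6 tumours for reference. The authors deposited RPKM per gene, and beside them a log2 fold change and an adjusted p-value for each of their comparisons. Per the submitters' processing notes the build was mm9 and the tools named were TopHat2 2.0.8, SAMtools, featureCounts 1.4.5-p1 and DESeq2, with roles, strand setting and duplicate handling not given in the sources used here. Groups follow the labels, and 0 columns belonged to other series.

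From these values, log2(RPKM + 1) was fitted with limma 3.58.1 (trend, R 4.3.3) over the 20 AAV8-TBG-CRE livers, two-sided, with Benjamini-Hochberg adjustment over all genes tested. Differences on this scale understate changes of low genes. The tumours were fitted with 7 wild-type livers given 4-OHT. Whole reads were recovered from the RPKM for 100% of 20485 genes with a value above 0 (tolerance 0.0001 reads), and limma-voom on them called 16 genes. Both steps were tested on simulated data. The genes named are the markers, the called genes, 6 uncalled genes per direction with the smallest p (mean RPKM of at least 1, with predicted genes and names ending in Rik left out), and up to 5 per list, and others are named as members of a list or relatives of a called gene. Members and lists were chosen with earlier results of these data known, and a few genes were picked out after their values were seen. Each limma p-value sets a difference against the spread between the livers or tumours of its fit, which for day 4 includes the MYC livers. Protein sequences were not used here.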

Additional observations from a re-analysis of the deposited data

Results flagged for a closer look

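For Ctnnb1, the called genes and the 6 uncalled genes named per direction, 62 sets of 5 livers were examined for a liver standing apart. Chance alone marks about 1 in 20 of such sets, and 2 were marked. Genes named only as members of a list, such as Muc1 and Cd24a below, were not examined in this way. Slc1a5 was at 3.35 RPKM in Ex3 replicate 5, with the next lowest Ex3 liver at 6.53 RPKM. Tbcel, a tubulin-binding cofactor gene, was at 34.8 RPKM in Ex3 replicate 5, with the next lowest Ex3 liver at 51.7 RPKM.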

How the results depend on the processing

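Of the alternatives for the 18 calls in Ex3 against wild type, a sex term gave 31, sample quality weights 61, the livers with keratin reads 2 and those without 1, males 0 (529 genes at an unadjusted p under 0.05) and females 63. Leaving out 1 liver gave 6 to 19. Ces2d-ps and Kif26b did not pass the filter in some of these fits. No fit reversed a called gene that it held, which follows largely from the lack of overlap in 16 of the 18. When only the 10 livers were fitted, 17 genes were called, 9 of them among the 18. For Ex3 added to MYC, 20 calls became 7 with a pseudocount of 0.1, 2 with only those groups fitted, 32 with a sex term and 65 with weights, and 3 to 29 without 1 liver. For the tumours, 487 calls became 171 with a filter at an RPKM of 5, 70 with only the tumours fitted and 301 with weights, and 192 to 686 without 1 tumour. The interaction called 0 genes in every fit. The causes were not tested. No paired analysis was possible because the labels give no replicate numbers and the numbers used here follow the order of the records.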

Other observations

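Ex3 replicate 2 also had the highest levels of other duct genes. Muc1, a mucin gene, was at 22.0 RPKM there and at 0.403 to 1.66 RPKM in the 9 other livers, Tspan8 at 11.3 RPKM against 0.148 to 1.71 RPKM, Cd24a at 67.9 RPKM against 5.31 to 11.0 RPKM and Epcam at 7.06 RPKM against 0.762 to 2.30 RPKM. Spp1, which duct cells also express, was at 64.2 RPKM there, within the 54.9 to 85.1 RPKM of the others.

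Acute-phase genes had 0 of 24 members called, with 5 above 0 (53% of all genes were) and a median of -0.12. Orm3, an orosomucoid gene, spanned 2.31 to 44.99 RPKM in wild-type and 2.10 to 8.31 RPKM in Ex3 livers (-1.41 ± 0.732; limma adjusted p = 0.951), and the neutrophil gene S100a8 was at 89.2 RPKM in wild-type replicate 4 and at 4.01 to 42.5 RPKM in the other wild-type livers. Of the lists of YAP and TAZ targets, p53 response, bile acid genes and hepatocyte transcription factors, 0 of 20, 0 of 18, 0 of 24 and 0 of 23 tested members were called.

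Of the 20 genes called with Ex3 in MYC livers, 10 were not among the 18. Slc1a2, a glutamate transporter gene of the pericentral zone, had 2.40 there (limma adjusted p = 0.0383) and 0.91 ± 0.47 in Ex3 against wild-type livers (limma adjusted p = 0.945), and Hcrtr2, an orexin receptor gene, had 1.92 and 0.43. The test of the difference between the effects called neither gene (limma adjusted p = 0.9999 for each).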
